A study of Mus musculus with 7 samples.

Results

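Genes of the cell cycle and of DNA replication were followed through bulk RNA-Seq of endpoint tumors in a mouse model of glioblastoma. The 44 genes were chosen by their function. All 44 were found by symbol among the 19257 genes of the table, and all 44 passed the filter on low values (a mean of 10 normalized counts or more), which left 14782 genes to test. They fall into 18 genes of DNA replication and its onset, 22 genes of mitosis, and 4 cyclins and kinases of G1, the phase before replication. Embryos on CD-1 and C57BL/6 backgrounds were electroporated in utero with Cas9 and with guides that target tumor suppressors, including Trp53 and Nf1, so that every tumor, controls included, carried these targeted alleles. In the 3xCR group a piggyBac transposon labeled the cells with GFP. The GPC6 group received in addition a transposon for overexpression of GPC6, a proteoglycan anchored at the cell surface, from a promoter that is not given in the sources used here. The electroporated cells were progenitors that line the lateral ventricles, and the tumor tissue was cut out under fluorescence at the endpoint, with neurons, glia and immune cells of the host left in it. RNA was sequenced from 3 tumors labelled 3xCR (replicates 2, 3 and 4) and from 4 labelled GPC6 (replicates 1, 2, 3 and 4), 1 library per brain, and no brain without a tumor was among the libraries. The age of each animal at its endpoint is not given in the labels.

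A dividing cell passes through G1, copies its DNA in S phase and separates the copies in mitosis. D-type cyclins with the kinases Cdk4 and Cdk6 release E2F factors from the retinoblastoma protein in G1, and E2F factors then switch on the genes that license and run replication. The genes of mitosis are held silent until later and are raised together in G2 by factors that bind CHR and CCAAT letters in their promoters. Most neurons and mature glia of the adult brain do not divide, and hold few of these transcripts. The question addressed here is whether GPC6 tumors differed from 3xCR tumors in these transcripts, as the study also counted dividing cells in sections of young tumors.

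The values are normalized counts, the reads of a gene divided by a size factor of the library, and values of single libraries are listed in the order 2, 3, 4 for 3xCR and 1, 2, 3, 4 for GPC6. The libraries held 7197692 to 18879762 reads on genes. Gpc6 was above the 3xCR range in every GPC6 library, with 126 to 226 normalized counts in 3xCR and 263 to 5084 in GPC6 tumors (p = 0.057 in an exact two-sided permutation test, the least that 3 against 4 libraries can give), but the library labelled GPC6 replicate 2, at 263, lay near the 3xCR level. GPC6 replicate 1 stood apart from the other 6 libraries and the main results are therefore given with and without it. Its neuron list, 10 genes, summed to 60747 normalized counts, against 4695 to 7521 in 3xCR and 3797 to 30121 in the other GPC6 libraries. All 5 hypothalamic genes listed were highest there, by far for Avp and Oxt (541 and 428). Hcrt and Pmch were low even there (9.27 and 7.73), and Pomc had 24.7 against 20.3 in 3xCR replicate 2. Astrocyte, oligodendrocyte and precursor markers of the labelled neural tissue were above 0 in every library.

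All 44 genes were at their lowest in 1 tumor, GPC6 replicate 1, and this tumor set the sign of the comparison between groups. The mean log2 value was lower in GPC6 than in 3xCR tumors for 43 of 44 genes (51.7% of all genes tested were lower), whereas without GPC6 replicate 1 it was lower for only 8 of 44 (background 49.7%) and higher for 36 (background 50.3%). Without GPC6 replicates 1 and 2 together it was lower for 4. The median log2 fold change (GPC6 minus 3xCR) was -0.42 for replication, -0.53 for mitosis and -0.92 for G1 genes, against -0.02 for all genes tested, and without GPC6 replicate 1 it was 0.14, 0.29 and -0.38, against 0.0018. On the recovered reads of all 7 libraries the medians of replication, mitosis and G1 were -0.20, -0.13 and -0.77 with edgeR (all genes 0.02) and -0.17, -0.11 and -0.75 with DESeq2 (all genes 0.04), so that the order of replication and mitosis turned with the tool. No gene passed the test: with limma on log2(normalized count + 1) and Benjamini-Hochberg adjustment over all 14782 genes, 0 of 44 had an adjusted p under 0.05 (percent called among all genes 0%), and their adjusted p ran from 0.730 to 0.984. At an unadjusted p under 0.05 there was 1 gene of the 44, Ccnd2, which was lower (4.66% of all genes, 1.92% lower and 2.74% higher). Without GPC6 replicate 1 there was none (3.17% of all genes). The groups overlapped for all 44 genes, where 2.8% of all genes tested were higher and 3.52% lower without overlap, and also without GPC6 replicate 1 (3.84% and 5.19%). DESeq2, the tool the authors used, run here on the recovered reads, gave an adjusted p for 36 of the 44 genes and called 0 of these at an adjusted p under 0.05 (0.0998% of the 9018 genes with one), and 0 of 44 at an unadjusted p under 0.05 (12.2%), and edgeR's quasi-likelihood test called 0 of 44 at both (0% and 6.7%).

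**Figure D1:**
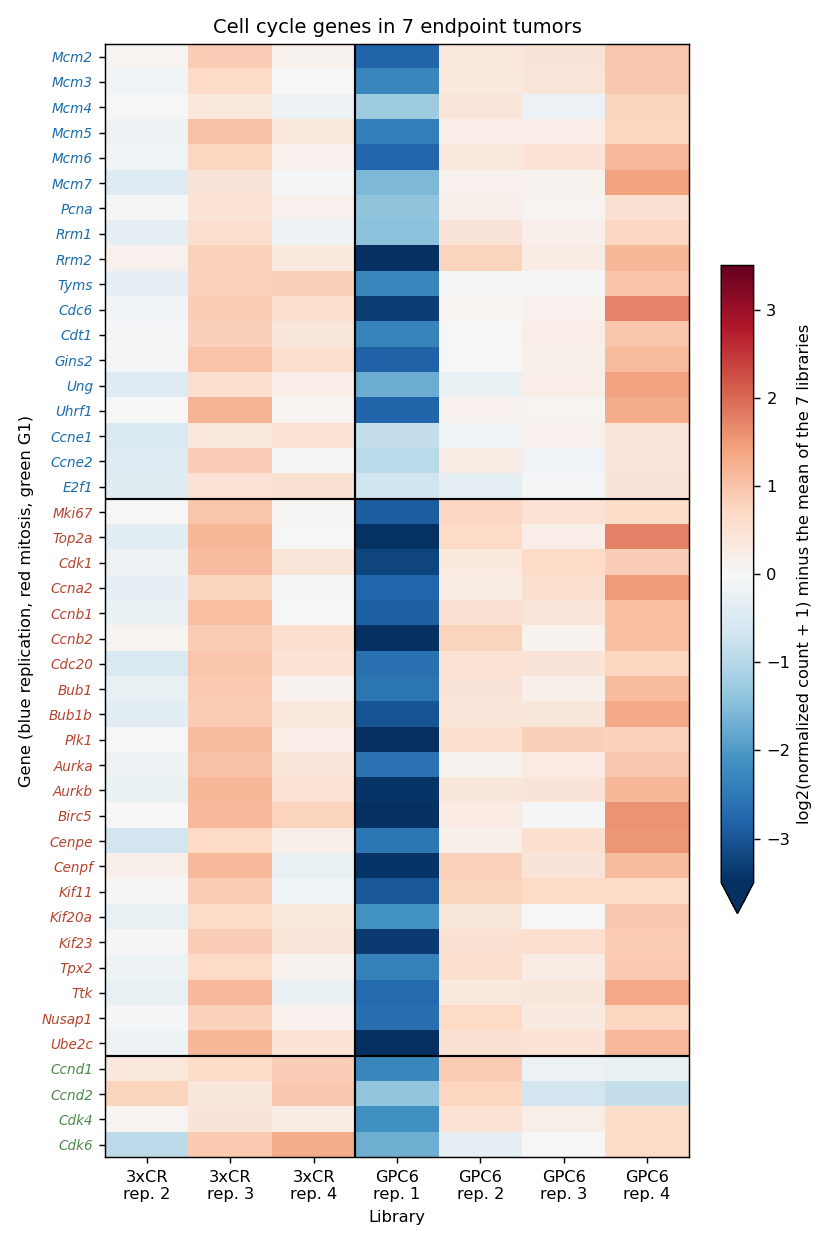
Each row is 1 of the 44 genes and each column 1 library, and the color gives log2(normalized count + 1) minus the mean of the gene over the 7 libraries. GPC6 replicate 1 is the darkest blue column in all 44 rows, and 3xCR replicate 3 and GPC6 replicate 4 are the reddest columns in most replication and mitosis rows.

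The order of the libraries was shared by most genes of replication and mitosis. GPC6 replicate 1 was the lowest of the 7 libraries for 40 of these 40 genes (31.3% of all genes tested), and 3xCR replicate 2 was the lowest of the remaining 6 for 36 of 40 (12.7%). The pair of highest libraries was 3xCR replicate 3 and GPC6 replicate 4 for 33 of 40 (8.55%), 1 tumor of each group. GPC6 replicate 4 was highest of all 7 for 26 of 40 (18.4%). The 40 genes together therefore ranked the tumors, but the ranking ran across the groups rather than between them.

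A class average was taken as the mean, over the genes of a class, of the deviation of log2(normalized count + 1) from its 7-library mean. For replication it was -0.18, 0.73 and 0.24 (3xCR) against -2.06, 0.17, 0.16 and 0.96 (GPC6). For mitosis it was -0.18, 0.96 and 0.23 (3xCR) against -2.99, 0.50, 0.40 and 1.08 (GPC6). The spread within the GPC6 group, an SD of 1.30 for replication and 1.85 for mitosis (n = 4), exceeded the difference between the group means, which were 0.26 and -0.20 for replication and 0.34 and -0.25 for mitosis in 3xCR and GPC6. Without GPC6 replicate 1 the SD fell to 0.46 and 0.37 (n = 3) and the GPC6 means were 0.43 and 0.66, both above those of 3xCR by less than the 3xCR SD of 0.46 and 0.58 (n = 3). No test was made of these averages, because their genes share the same 7 libraries.

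**Figure D2:**
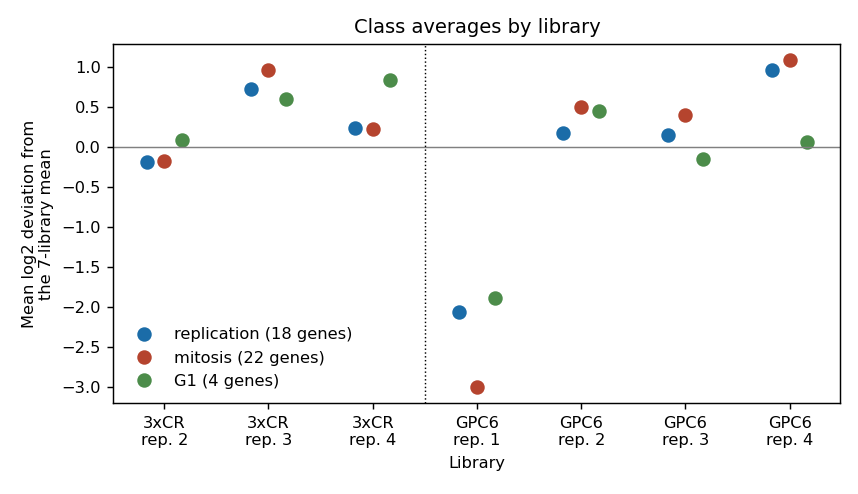
The class average (mean log2 deviation from the mean of the 7 libraries, vertical axis) is drawn for each library (horizontal axis) for replication, mitosis and G1 genes, with the dotted line between the groups. GPC6 replicate 1 lies at -2.06, -2.99 and -1.88, far below the other 6 libraries, and in GPC6 replicate 4 the G1 average of 0.06 lies well under the averages of replication and mitosis.

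The genes of replication include the 6 subunits of the MCM helicase, the ring that unwinds DNA at the fork and is loaded onto origins in G1. Mcm2 (chromosome 6, 88883474 to 88898780 in GRCm38 coordinates) had normalized counts of 722, 1239 and 733 (3xCR) against 95.8, 876, 919 and 1293 (GPC6). Mcm3 (chromosome 1, 20802968 to 20820312) had 575, 986 and 601 (3xCR) against 124, 777, 816 and 1173 (GPC6). The highest values of both genes came from GPC6 replicate 4, and the lowest from GPC6 replicate 1. Mcm4 (chromosome 16, 15623897 to 15637400) had 543, 697 and 478 (3xCR) against 224, 722, 468 and 928 (GPC6). Mcm5 (chromosome 8, 75109569 to 75128439) had 673, 1565 and 982 (3xCR) against 144, 899, 891 and 1284 (GPC6). Mcm5 was the one MCM gene whose highest library was of the 3xCR group. Mcm6 (chromosome 1, 128331590 to 128359664) had 734, 1347 and 874 (3xCR) against 114, 1030.5, 1094 and 1742 (GPC6). Mcm7 (chromosome 5, 138164583 to 138172422) had 769.6, 1443 and 1008 (3xCR) against 357, 1171, 1155 and 2814 (GPC6). Mcm7 was the member with the largest log2 fold change of the replication class, 0.06 (standard error, SE, 0.62, adjusted p = 0.984 by limma), with by far its highest value in GPC6 replicate 4. The other log2 fold changes were -0.63 (SE 0.84), -0.34 (0.73), -0.13 (0.47), -0.70 (0.73) and -0.47 (0.86) for Mcm2, Mcm3, Mcm4, Mcm5 and Mcm6, each smaller than its standard error. Without GPC6 replicate 1 those of Mcm2, Mcm3, Mcm4, Mcm6 and Mcm7 were 0.22 (SE 0.28), 0.37 (0.29), 0.26 (0.30), 0.39 (0.31) and 0.59 (0.41), and that of Mcm5 was -0.0029 (0.34).

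The subunits occupy the ring in equal numbers, and their levels per length of exon could be set beside each other. Mcm7 was the highest per kilobase of merged exons in each of the 7 libraries and Mcm4 the lowest in 6, the exception being GPC6 replicate 1, where Mcm6 was lowest. The mean over the 7 libraries was 420 ± 261 normalized counts per kilobase (SD, n = 7) for Mcm7 and 162 ± 62.9 for Mcm4. It was 226 ± 116, 238 ± 111, 249 ± 118 and 266 ± 130 for Mcm6, Mcm3, Mcm2 and Mcm5. The SD is that between libraries, which the subunits share, so it does not measure the difference between genes. The ratio of the highest to the lowest subunit within a library was 1.72 to 2.56 in 3xCR tumors and 1.96 to 4.61 in GPC6 tumors, with the largest in GPC6 replicate 1. Mcm7 exceeded Mcm6 in normalized counts by a ratio of 1.05 to 1.15 in the 3xCR libraries and in GPC6 replicates 2 and 3 (1.14 and 1.06), and by 3.12 and 1.62 in GPC6 replicates 1 and 4.

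Loading of the ring needs Cdc6 and Cdt1, and Gins2 is a subunit of the complex that activates it. Gins2 (chromosome 8, 120578633 to 120589304) was the member with the lowest log2 fold change of the replication class. It had normalized counts of 141, 299.5 and 222 (3xCR) against 20.1, 150.2, 169 and 322 (GPC6), a log2 fold change of -0.88 (SE 0.86, adjusted p = 0.774 by limma) that was -0.07 (0.41) without GPC6 replicate 1. Cdc6 reached 337 in GPC6 replicate 4, against 94.8 to 188 in 3xCR, and 9.27 in GPC6 replicate 1, where 6 reads lay behind the value. Cdt1 ran from 44.8 in GPC6 replicate 1 to 449.6 in GPC6 replicate 4, with 221 to 411 in 3xCR.

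Pcna, the sliding clamp of the replicative polymerases, was the most abundant replication gene per length of exon (chromosome 2, 132249162 to 132253314). It had 1366, 2020.4 and 1602 normalized counts (3xCR) against 547, 1635, 1551 and 2098 (GPC6). The 6 libraries other than GPC6 replicate 1 lay within 1.54-fold of each other, the narrowest range of the replication class. The log2 fold change of Pcna was -0.33 (SE 0.45, adjusted p = 0.837 by limma), and 0.09 (0.23) without GPC6 replicate 1. Ribonucleotide reductase makes the building blocks of DNA from a large subunit, Rrm1, and a small one, Rrm2. Rrm1 stood in GPC6 replicate 1 at 29.6% of the median of the other 6 libraries, and Rrm2, whose transcript is tied to S phase, at 5.94% (47.9 normalized counts, 31 reads). Tyms, which makes thymidylate, stood at 14.9%, the uracil glycosylase Ung at 25.2% and Uhrf1, which carries DNA methylation through replication, at 13.0%.

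Among the 18 replication genes, Ccne1, Ccne2 and E2f1 kept the highest share in GPC6 replicate 1. Of the further replication genes counted below, Fen1, Rpa2, Slbp and Cdc7 kept more (72.3%, 66.6%, 63.6% and 55.1%, named after their values were seen). The rest of that list stayed under the 52.7% of E2f1, among them Dbf4 at 18.3% and Orc1 at 9.56%. The E2F genes among the further genes of G1 control ran from 8.51% (E2f7) to 81.4% (E2f3). The cyclins E, Ccne1 and Ccne2, and E2f1 stood in GPC6 replicate 1 at 47.0%, 47.4% and 52.7% of the median of the other 6 libraries, against 7.07% to 36.2% for the 9 licensing genes and 5.94% to 33.8% for the 6 genes of clamp, nucleotide supply and chromatin. Ccne1 had 152, 281 and 312 normalized counts (3xCR) against 124, 203, 246 and 296 (GPC6). E2f1 had 127, 244 and 250.0 (3xCR) against 105, 136, 163 and 236 (GPC6), and its highest values were those of 3xCR replicates 3 and 4. For both genes GPC6 replicate 1 lay just below 3xCR replicate 2.

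E2F factors bind a short stretch of letters, and the promoters of the replication genes were read for it in the RefSeq sequences of GRCm38.p6, from 250 bases before to 50 after the annotated start. A promoter was given for 35 of the 44 genes. The letters searched were TTTCCCGC, TTTCGCGC, TTTGGCGC and TTTGCCGC on both strands, and 7 of 15 replication genes held at least 1 of them, against 1 of 18 mitosis genes and 2.61% of all 27025 genes with a promoter. The windows before the start of Mcm5 (chr8:75109334-75109508, plus strand) and Mcm6 (chr1:128359706-128359855, minus strand) are shown because they hold 2 and 3 such matches. Capitals mark the E2F letters and the CCAAT letters, which read ATTGG on the other strand, and overlapping matches run together.
Mcm5: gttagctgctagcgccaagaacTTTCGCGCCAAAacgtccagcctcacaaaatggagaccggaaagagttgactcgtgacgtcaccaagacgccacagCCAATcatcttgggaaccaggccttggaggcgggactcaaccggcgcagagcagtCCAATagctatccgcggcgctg
Mcm6: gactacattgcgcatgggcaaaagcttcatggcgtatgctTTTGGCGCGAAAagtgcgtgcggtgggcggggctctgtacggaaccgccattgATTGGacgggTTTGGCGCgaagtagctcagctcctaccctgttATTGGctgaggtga

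The genes of mitosis stood lower in GPC6 replicate 1 than those of replication, a description of 1 tumor with no test. They stood there at 5.07% to 17.3% of the median of the other 6 libraries, with a median of 9.12%, where replication genes stood at 5.94% to 52.7%, with a median of 15.6%. All 22 mitosis genes and 10 of 18 replication genes were under 1/4 of that median (5.35% of all genes tested). The mitosis average minus the replication average was -0.93 in this tumor and between -0.01 and 0.33 in the other 6, and within these 6 the 3xCR values (0.01, 0.24 and -0.01) and the GPC6 values (0.33, 0.24 and 0.13) overlapped.

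Mki67, the antigen counted in pathology as the mark of dividing cells (chromosome 7, 135689784 to 135716361), had normalized counts of 949.9, 1876 and 983 (3xCR) against 130, 1586, 1357 and 1488 (GPC6). The other 3 GPC6 tumors were close together and between the 3xCR extremes. Its log2 fold change was -0.58 (SE 0.87, adjusted p = 0.852 by limma), and 0.29 (0.29) without GPC6 replicate 1. Top2a, the topoisomerase that untangles sister chromosomes (chromosome 11, 98992943 to 99024189), was the most abundant mitosis gene per length of exon. It had 1255, 3615 and 1586 (3xCR) against 145, 2592, 1879.7 and 5412 (GPC6), so that both groups spanned more than their difference. Its log2 fold change was -0.46 (SE 1.12, adjusted p = 0.911 by limma), and 0.62 (0.51) without GPC6 replicate 1. Top2a stood out over Mki67 in GPC6 replicate 4, where their ratio of normalized counts was 3.64, against 1.12 to 1.93 in the other 6 libraries.

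Birc5, or survivin, a part of the complex that corrects chromosome attachment (chromosome 11, 117849251 to 117855743), had the lowest log2 fold change of the mitosis class. Its normalized counts were 311, 682 and 532 (3xCR) against 23.2, 383, 301 and 922 (GPC6), and it was the mitosis gene that stood lowest in GPC6 replicate 1, at 5.07% of the median of the others with 15 reads. The log2 fold change of Birc5 was -1.10 (SE 1.10, adjusted p = 0.783 by limma) and shrank to -0.03 (0.48) without that library. Cenpe, a kinesin of the kinetochore (chromosome 3, 135212537 to 135273611), had the highest. Its counts were 203, 516 and 358 (3xCR) against 54.1, 356, 463 and 915 (GPC6), a log2 fold change of -0.15 (SE 0.88, adjusted p = 0.967 by limma) that became 0.67 (0.46) without GPC6 replicate 1.

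The drivers of entry into mitosis were lowest in GPC6 replicate 1 as well. Cdk1, the kinase that starts mitosis, had 597, 1417 and 907 normalized counts (3xCR) against 71.1, 857, 1086 and 1214 (GPC6). Ccnb2, one of its B cyclins, had 275, 477 and 374 (3xCR) against 21.6, 438, 277 and 527 (GPC6). Plk1, a kinase of spindle assembly, had 338, 714 and 392 (3xCR) against 27.8, 499, 599.7 and 586 (GPC6). In each of the 3 genes the 3xCR range overlapped that of GPC6 replicates 2, 3 and 4. The 7 drivers (Cdk1, Ccna2, Ccnb1, Ccnb2, Plk1, Aurka and Aurkb) stood in GPC6 replicate 1 at 5.13% to 12.8% of the median of the others. The exit from mitosis is run by the anaphase-promoting complex, which Cdc20 activates and Ube2c serves as its conjugating enzyme, while Bub1, Bub1b and Ttk hold it back until all chromosomes are attached. These 5 genes stood at 5.62% to 13.1% in that tumor. The 5 genes of the spindle (Kif11, Kif20a, Kif23, Tpx2 and Nusap1) stood at 6.29% to 17.3%, and Kif20a, a kinesin of the midbody, kept the most.

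**Figure D3:**
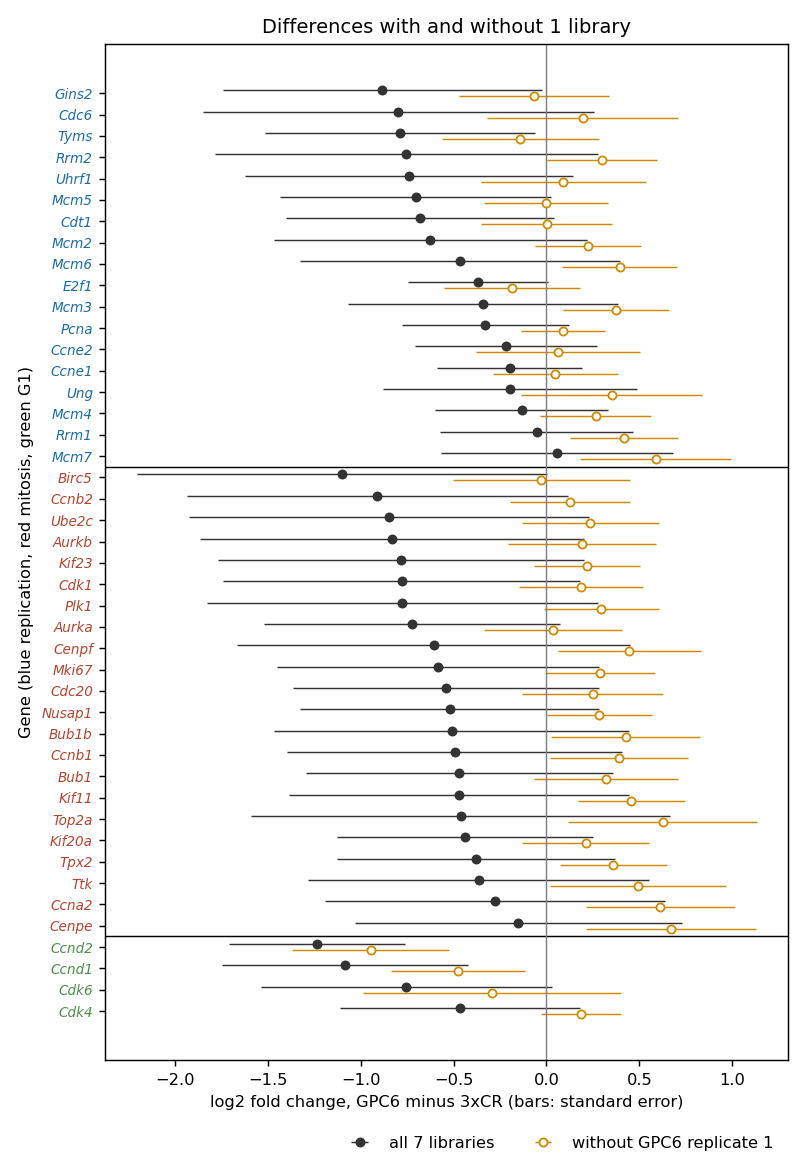
For each of the 44 genes the log2 fold change on the log2(normalized count + 1) scale (GPC6 minus 3xCR, horizontal axis, bars 1 standard error) is drawn with all 7 libraries and without GPC6 replicate 1. With all libraries 43 points lie below 0, and without that library 36 lie above 0. Mcm5, Tyms, Gins2, E2f1, Birc5, Ccnd1, Ccnd2 and Cdk6 stay below 0 in both.

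The CHR letters TTTGAA and TTCGAA and the letters CCAAT, searched on both strands in the same promoters, divided the classes as well. CHR letters were found in 14 of 18 mitosis genes and 2 of 15 replication genes (21.7% of all genes with a promoter), and CCAAT letters in 16 of 18 and 9 of 15 (41.1%). CHR and CCAAT letters together were found in 14 of 18 mitosis genes and 2 of 15 replication genes (9.65%). Short letters such as these occur in many promoters, and a match is no proof of binding. The windows below show 4 promoters with CHR letters within 30 bases of the start: Cdk1 (chr10:69352913-69353062, minus strand), which alone among the mitosis genes also held E2F letters, Cdc20 (chr4:118437344-118437463, minus strand), Ube2c (chr2:164769809-164769928, plus strand) and Kif11 (chr19:37376262-37376381, plus strand). Capitals mark E2F, CHR (TTTGAA, or TTCAAA on the other strand) and CCAAT letters.
Cdk1: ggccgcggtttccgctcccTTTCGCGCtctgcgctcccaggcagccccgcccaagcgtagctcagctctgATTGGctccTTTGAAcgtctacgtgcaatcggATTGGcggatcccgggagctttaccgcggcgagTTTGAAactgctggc
Cdc20: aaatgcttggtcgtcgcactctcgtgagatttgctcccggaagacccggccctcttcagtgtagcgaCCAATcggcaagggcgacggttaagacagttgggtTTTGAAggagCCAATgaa
Ube2c: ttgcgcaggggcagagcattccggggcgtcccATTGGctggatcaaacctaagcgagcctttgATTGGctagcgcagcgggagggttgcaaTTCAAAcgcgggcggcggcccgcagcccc
Kif11: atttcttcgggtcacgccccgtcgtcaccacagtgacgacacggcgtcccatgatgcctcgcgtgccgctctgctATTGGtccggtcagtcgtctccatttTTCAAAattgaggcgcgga

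**Figure D4:**
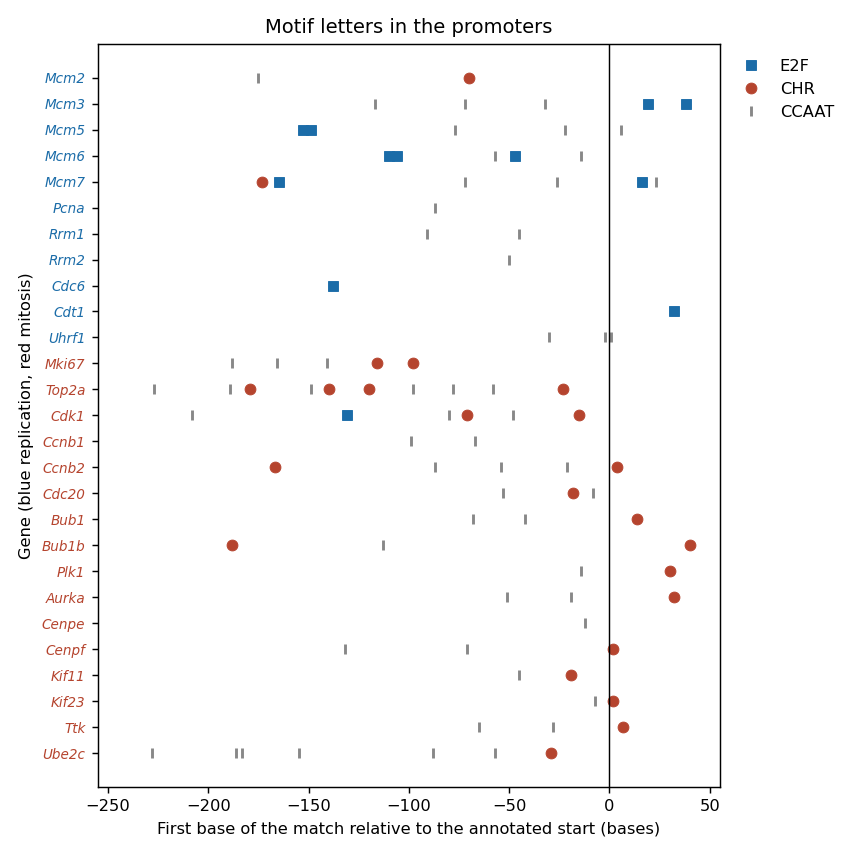
Matches to the E2F, CHR and CCAAT letters are drawn for each replication and mitosis gene with a match (vertical axis) by the distance of their first base from the annotated start (horizontal axis, bases), in the first promoter listed for the gene. Squares of E2F letters lie in replication genes and in Cdk1, and circles of CHR letters lie mostly in mitosis genes and often close to the start.

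Of the 4 G1 genes, all lowest in GPC6 replicate 1, the D cyclins did not otherwise follow the order of the other genes. Cdk4 and Cdk6 had 3xCR replicate 2 as the lowest of the other 6 libraries, as most of those genes did. Ccnd1, or cyclin D1, which links growth signals to the cell cycle (chromosome 7, 144929931 to 144939925), had normalized counts of 8117, 9924 and 11424 (3xCR) against 1298, 11769, 5546 and 5256 (GPC6). GPC6 replicates 1, 3 and 4 lay below all 3xCR tumors and GPC6 replicate 2 above all of them. Its log2 fold change was -1.08 (SE 0.66, adjusted p = 0.730 by limma), and -0.47 (0.36) without GPC6 replicate 1. Ccnd2, or cyclin D2 (chromosome 6, 127125162 to 127152193), had 3652, 2770 and 4029 (3xCR) against 804, 3534, 1360 and 1183 (GPC6). Here as well GPC6 replicates 1, 3 and 4 lay below all 3xCR tumors, while GPC6 replicate 2, the library with Gpc6 near the 3xCR level, lay among them. Ccnd2 had the lowest log2 fold change of all 44 genes, -1.23 (SE 0.47, unadjusted p = 0.031 and adjusted p = 0.730 by limma), and it was -0.95 (0.42, adjusted p = 0.905) without GPC6 replicate 1. With a weight per library estimated by limma Ccnd2 passed at an adjusted p of 0.031 (log2 fold change -1.02), where 13.3% of all genes were called and 3.92% were called lower. This call rests mostly on 1 library of each group, since 3xCR replicate 3 and GPC6 replicate 3 had weights of 8.71 and 4.47 and the other 5 libraries 0.30 to 0.85. The oligodendrocyte list, 8 genes, was lowest in GPC6 replicates 3 and 4, with sums of 24619 and 15785 against 66557 to 113770 in the other libraries. In GPC6 replicate 1, where both D cyclins were lowest, it summed to 98756. The part of these cells in the D cyclins was not tested.

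Cdk4, a kinase partner of the D cyclins (chromosome 10, 127063534 to 127067920), had 3909, 4954 and 4337 normalized counts (3xCR) against 824, 5129, 4221 and 5706 (GPC6). The 6 libraries other than GPC6 replicate 1 lay within 1.46-fold of each other, the narrowest range of all 44 genes. The log2 fold change of Cdk4 was -0.46 (SE 0.65, adjusted p = 0.842 by limma), and 0.19 (0.22) without GPC6 replicate 1. Cdk6 (chromosome 5, 3341485 to 3531008) had 8.77, 33.5 and 44.2 (3xCR) against 4.64, 13.8, 17.7 and 28.8 (GPC6), and the lowest value was of 3 reads. Its log2 fold change was -0.75 (SE 0.78, adjusted p = 0.793 by limma), and -0.29 (0.70) without GPC6 replicate 1. Per kilobase of exon, Cdk4 averaged 2023 ± 775 normalized counts (SD, n = 7) and Cdk6 1.88 ± 1.24, while Ccnd1 averaged 2037 ± 1019 and Ccnd2 369 ± 199. Ccnd1 and Cdk4 were the most abundant of the 44 genes per length, and which of them was higher varied between libraries.

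The balance of Ccnd1 to the rest shifted among the tumors. The ratio of Ccnd1 to Cdk4 in normalized counts was 2.08, 2.00 and 2.63 (3xCR) against 1.58, 2.29, 1.31 and 0.921 (GPC6). The ratio of Ccnd1 to Pcna was 5.94, 4.91 and 7.13 (3xCR) against 2.37, 7.20, 3.58 and 2.51 (GPC6). In both ratios GPC6 replicate 2 lay within or just above the 3xCR range, and the other GPC6 tumors, GPC6 replicate 1 included, lay below it. GPC6 replicate 4, highest of all for 26 of the 40 replication and mitosis genes, had the lowest ratio of Ccnd1 to Cdk4.

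**Figure D5:**
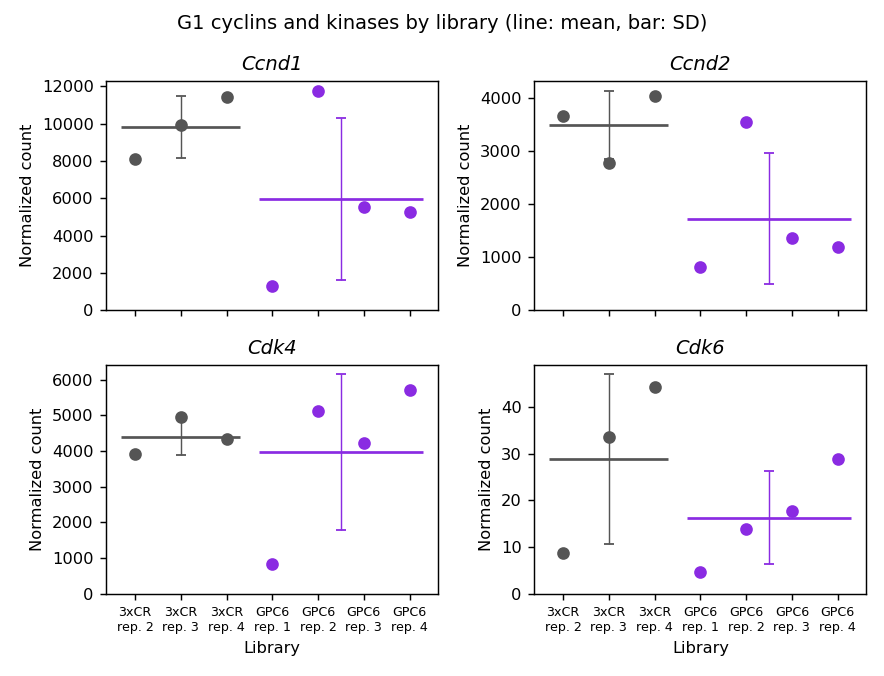
Normalized counts (vertical axes, linear, starting at 0) of Ccnd1, Ccnd2, Cdk4 and Cdk6 are drawn by library, with the group mean as a line and the SD as a bar (n = 3 and n = 4). Ccnd1 and Ccnd2 are low in GPC6 replicates 1, 3 and 4 and not in GPC6 replicate 2, while Cdk4 is low in GPC6 replicate 1 alone.

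Other genes of the same pathway, 70 in 3 lists, were counted in the same way. GPC6 replicate 1 was lowest for 25 of 25 further replication genes, 23 of 25 further mitosis genes and 14 of 20 further genes of G1 control (31.3% of all genes). None of the 70 was under an unadjusted p of 0.05 in limma (4.66% of all genes), or without overlap between the groups (2.8% higher and 3.52% lower). The mean log2 values were lower in GPC6 for 22 of 25, 23 of 25 and 15 of 20 (51.7% of all genes), and without GPC6 replicate 1 for 8, 3 and 9. The gene with the highest mean normalized count of each list was Topbp1, a scaffold of replication forks, Racgap1, which directs the cleavage furrow, and Tfdp1, the partner of E2F factors. They stood in GPC6 replicate 1 at 37.2%, 25.2% and 40.1% of the median of the others. In that tumor 5 of the 70 were above the median of the others, and 3 of these, named after their values were seen, were at their highest of the 7 libraries. Cdkn1a, the p21 inhibitor of cyclin kinases, had 1036 normalized counts there against 297 to 794 elsewhere. Rbl2, the p130 protein, had 1002 against 406 to 582, and Anln, an actin-binding protein of the cleavage furrow, had 672 against 257 to 543. The shares of all genes for these counts were not taken. Of the other inhibitors listed, Cdkn1b, Cdkn1c and Cdkn2c stood there at 78.8%, 52.0% and 20.4% of the median of the others, and Cdkn2d at 119%. Rb1 and Rbl1 stood at 74.5% and 16.5%.

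Markers of other cells also set GPC6 replicate 1 apart. In that tumor 9 of 10 neuron genes, 5 of 6 choroid plexus genes and 5 of 8 astrocyte genes were at their highest of the 7 libraries. The share of all genes at their highest there was not counted. At their lowest were 4 of 6 genes of oligodendrocyte precursors, 5 of 8 genes of microglia and macrophages and 5 of 6 T cell genes (31.3% of all genes tested). The precursor list summed to 14116 normalized counts there, 15737 to 53654 in 3xCR and 25814 to 74713 in the other GPC6 tumors. The T cell list summed to 427 to 1608 in 3xCR and 321 to 449.7 in GPC6 tumors, and the sum of microglia and macrophage genes was 24878 to 47844 in 3xCR and 13170.5 to 22907 in GPC6. Folr1 of the choroid plexus list and Avp, Oxt, Hcrt and Pmch of the hypothalamus list were at 0 in at least 1 library, and the other listed markers above 0 in every library. GPC6 replicate 3 had the next highest neuron sum, 30121, with replication and mitosis averages of 0.16 and 0.40. In 3xCR replicate 3 the choroid plexus list summed to 3738, with averages of 0.73 and 0.96. The part of these cells in the cell cycle values was not tested, and in bulk tissue fewer cycling cells and less of their RNA per cell cannot be told apart.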

How the data were processed

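Groups and replicate numbers came from the sample labels. The authors aligned reads to mm10 with STAR 2.5.0a, counted them with Rsamtools 2.0.0 and GenomicFeatures 1.32.2 and divided them by DESeq2 1.20.0 size factors, and the deposited values are this normalized signal per gene, with no length correction. Of 19282 entries, 25 named as dates (0.254% to 0.361% of reads) were left out. All values (100%) were whole multiples of 1 read within 0.01, which gave the counts back; a count of 0 would allow 1.64 to 4.64 normalized counts (3 reads, counting error only). Differences were tested two-sided, over the 14782 genes with a mean of at least 10, by limma (version 3.58.1, R 4.3.3) with a mean-variance trend and a pseudocount of 1. The 17 alternatives included edgeR 4.0.16 and DESeq2 1.42.0 on the recovered reads. Scripts were tested on simulated data. The members, lists and rules were chosen with earlier results of these data known. Named with full values were the MCM genes, Pcna, Mki67, Top2a, the G1 genes and, in each class, the highest mean, the extreme fold changes and any gene with an unadjusted p under 0.05; Ccne1, E2f1, Cdk1, Ccnb2 and Plk1 were added as examples after their values were seen. Exon lengths and coordinates came from GENCODE M21 (GRCm38), promoters from RefSeq. The labels name no batch, and the spread is that between tumors.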

Additional observations from a re-analysis of the deposited data

Results flagged for a closer look

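Within the GPC6 group a value was singled out where its gap to the nearest of the other 3 libraries, divided by the range of the 4, exceeded Dixon's 95% critical value for 4 samples. Of 19 quantities examined (the 16 genes given with fold changes, on the log2 scale, and the 3 class averages), 5 met this and all 5 were low values of GPC6 replicate 1, where chance gives about 0.95. The quantities share libraries and are not independent. Mcm2 had 95.8 normalized counts there, against 876 to 1293 in the other GPC6 tumors. Mcm5 had 144 against 891 to 1284. Mki67 had 130 against 1357 to 1586. Cdk4 had 824 against 4221 to 5706. The mitosis average was -2.99 against 0.40 to 1.08. The 3xCR group, with 3 libraries, was not examined in this way.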

How the results depend on the processing

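Of the genes tested among the 44 (43 with a mean of at least 50, which drops Cdk6, and 36 with an adjusted p in DESeq2), 0 were called under every alternative except library weights, which called 1 (Ccnd2) and 1962 of all genes. DESeq2 called 9 of all genes. Leaving out each library in turn gave 0 calls in both. A negative log2 fold change (GPC6 minus 3xCR) was found for 43 genes in the main fit, 34 with edgeR and 32 with DESeq2. With each library left out this number ran from 8 (without GPC6 replicate 1) to 44. It was 4 without GPC6 replicates 1 and 2 (chosen after seeing the data). The class medians, -0.42, -0.53 and -0.92 for replication, mitosis and G1, ran from -0.81 to 0.14, -0.97 to 0.29 and -1.20 to -0.38, the upper ends without GPC6 replicate 1, and were -0.20, -0.13 and -0.77 with edgeR and -0.17, -0.11 and -0.75 with DESeq2. Deviations of same-numbered libraries from their group means correlated with r of -0.19, 0.12 and 0.30, and those of the other pairs with -0.46 to 0.50. So few pairs cannot decide whether equal numbers mark a shared origin. With the replicate number as a block, GPC6 replicate 1 has no partner and drops out of the difference: 8 genes were lower, and the log2 fold changes of Mcm2, Mcm3, Mcm4, Mcm6, Pcna, Mki67, Top2a, Cdk4 and Cenpe became 0.22, 0.37, 0.26, 0.39, 0.089, 0.29, 0.62, 0.19 and 0.67. The block changed no call. Signs also turned with DESeq2 for Mcm3, Mcm4, Mcm6, Top2a and Cenpe (0.013, 0.042, 0.023, 0.23 and 0.33), with edgeR for Mcm4, Mcm6, Top2a and Cenpe (0.019, 0.00016, 0.20 and 0.30), and with library weights for Mcm7 (-0.21). For Mcm3, Mcm4, Mcm6, Top2a and Cenpe the mean of the normalized counts, without logs, was higher in GPC6 tumors. It was 721, 573, 985, 2152 and 359 in 3xCR against 722, 586, 995, 2507 and 447 in GPC6. The same held for Mcm7 (1074 against 1374). The cause of the turned signs was not tested. With each library left out the log2 fold change ran from -1.03 to 0.22 for Mcm2, -0.70 to 0.37 for Mcm3, -0.42 to 0.26 for Mcm4, -0.40 to 0.59 for Mcm7, -0.91 to 0.39 for Mcm6, -0.56 to 0.089 for Pcna, -0.91 to 0.29 for Mki67, -1.11 to 0.62 for Top2a, -0.74 to 0.19 for Cdk4 and -0.68 to 0.67 for Cenpe. Pseudocount, scaling and no filter kept the sign of all 16 genes with fold changes in the text, and a mean of at least 50 that of the 15 it tests.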
